A study of Gallus gallus with 5 samples.

Results

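The ATP-binding cassette (ABC) transporter genes of granulosa cells, the layer of the hen's follicle next to the oocyte, were compared between hens fed ad libitum (FF) and hens on a restricted feed allowance (RF). Members were the rows of the deposited expression table whose gene name starts with ABC, a letter from A to G and a digit. This gave 31 of 24356 listed genes, of which 6 were in subfamily A, 8 in B, 6 in C, 3 in D, 1 in E, 2 in F and 5 in G. The 31 genes carry 30 symbols, because 2 Ensembl identifiers are both named ABCB1. RNA came from broiler breeder hens, from the granulosa layers of 5 to 6 follicles of 6–8 mm in diameter pooled within each hen, with 1 library per hen for 2 FF hens and 3 RF hens. Diet was the only treatment in the labels, given for 6 weeks from an age of 28 weeks. The diets had separate pens, and FF hens were picked for sequencing for an excess of preovulatory follicles and RF hens for a normal number, so that diet, pen and follicle number cannot be told apart. The labels call the follicles recently selected, and the study calls them pre-hierarchal. A further FF library was discarded by the authors as an outlier and was not analysed here.

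ABC proteins bind ATP in a pair of conserved nucleotide-binding domains, and most of them use its hydrolysis to move lipids, sterols, drugs, conjugates, peptides or metal compounds across a membrane. Subfamilies A and G hold many exporters of cholesterol and phospholipid, B and C many multidrug exporters, and D the fatty acid importers of the peroxisome. Exceptions include ABCG2, a drug exporter of G, and ABCD4, a lysosomal protein of D. Subfamilies E and F hold soluble proteins without a membrane domain that act on ribosomes. A pair of C members, ABCC8 and ABCC9, are the sulfonylurea receptors that regulate the ATP-sensitive potassium (KATP) channel. Sterol export matters to a granulosa cell because cholesterol is also the substrate from which the cell makes progesterone.

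Values are normalized counts, that is, reads per gene divided by a size factor for each library. Their totals were 29491091 and 28891495 for the FF libraries against 25929234 to 27277087 for the RF libraries. Judged by which low values recur, 1 read was worth 0.813 to 1.213 normalized counts, so that each library held about 21400000 to 33500000 reads in genes. The granulosa markers FOXL2, AMH and FSHR were present in every library, at no less than 13657, 17336 and 3725 normalized counts. Granulosa markers were not even between groups, as 8 of 10 had a positive log2 fold change, FF minus RF (median 0.19). At an adjusted p under 0.05 from limma, 4 were higher in FF hens and 0 lower, against 0.842% and 0.241% of all tested genes. The 4 were INHA, CYP11A1, STAR and NR5A1. Every FF library lay below every RF library in 2, AMH and WT1 (16.9% of all tested genes did). The study names these 4 genes and WT1 from these same libraries, so their directions are no independent evidence. Markers of other cells differed between libraries and groups. Of the tested markers, 7 of 10 of theca and stroma (median log2 fold change, FF minus RF, −1.15), 5 of 7 of endothelium (−0.83), 6 of 6 of oocyte (−0.56) and 3 of 5 of white blood cells (−0.32) had a negative fold change, the direction of most ABC genes, against 2 of 5 of surface epithelium (median 0.08) and 0 of 4 of red blood cells (1.79). Markers were tested at a mean of 10 or more over the 5 libraries. PDGFRA, TAGLN, KDR and FLT1 averaged under 10 in FF hens and passed this filter through their RF values. SLC4A1 of red blood cells averaged under 10 in RF hens and passed through its FF values. The filter fixed the direction of these genes, which are in the counts and medians. RF replicate 1 had the highest value in 6, 4 and 6 of the theca, endothelial and oocyte markers. Summed levels, which rest on a few abundant genes such as ACTA2 and PECAM1, were 9262 and 9688 in FF hens against 6728 to 9782 in RF hens for theca and stroma, 4516 and 5174 against 3710 to 4816 for endothelium, 1178 and 915 against 1251 to 2100 for oocyte, 1167 and 824 against 657 to 976 for white blood cells, 3382 and 4877 against 3225 to 4377 for surface epithelium, and 3637 and 3941 against 1291 to 1617 for red blood cells. Most of each red blood cell sum was ALAS2, at 3369 and 3318 in FF hens and 1528, 1230 and 1243 in RF hens. PDGFRA, a marker of stroma, was at 0 in both FF libraries and at 56, 14 and 7 normalized counts in RF hens. Rows at 0 in all 5 libraries were found for HBE1 and HBBR of the red blood cell markers, OVALX and UPK3B of surface epithelium and CD8A of white blood cells. The part of these cells in the ABC values was not tested.

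No ABC gene passed the test between FF and RF hens. FF and RF libraries were compared with limma on log2(normalized count + 1), with adjusted p-values over the 13305 genes whose mean was 10 or more, and each fold change given is the FF mean less the RF mean on this log2 scale, where changes of genes with low values come out too small. Of the 30 ABC genes tested, 0 were higher and 0 lower in FF hens at an adjusted p under 0.05, where 0.842% and 0.241% of all tested genes were. The lowest adjusted p was that of ABCG2, 0.0758. Under the study's further limits (a log2 fold change over 1 in size and 200 normalized counts in the mean of either group) the ABC count, with the p-values of limma and not of the study's own test, was again 0 in either direction, against 0.699% of all genes higher and 0.15% lower in FF hens. At an unadjusted p under 0.05, 1 ABC gene was higher and 9 were lower in FF hens, against 9.58% and 8.22% of all tested genes. With libraries scaled to equal totals these ABC counts were 1 and 13, of 733 higher and 1773 lower genes in all, and the genes past the test were 90 higher and 70 lower in place of 112 and 32. The 9 lower genes of the main fit include the ABCB1 gene ENSGALG00000008912. It averaged under 10 in FF hens and passed the limit on the mean through its RF values. With 2 against 3 libraries an exact permutation test of a single gene cannot give a p below 0.1, and single libraries weigh heavily in each limma test. In RNA of pooled cells, fewer cells of a type and less RNA per cell cannot be told apart, which holds for every difference below.

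The ABC genes were placed unevenly around zero. The log2 fold change was negative in 22 and positive in 8 of the 30 tested genes, with a median of −0.36 against 0.01 for all tested genes. Every FF library lay below every RF library in 12 ABC genes (40% of those tested, against 16.9% of all tested genes) and above every RF library in 4 (13.3%, against 19.3%), and the groups overlapped in 14. The filter on low values bears on these counts and this median: 3 of the tested genes, the ABCB1 gene ENSGALG00000008912, ABCB11 and ABCG4, averaged under 10 in FF hens and passed through their RF values. All 3 are among the 22 negative genes, and the ABCB1 gene is among the 12. With a minimum mean of 50, which left 25 ABC genes, the median was −0.17 against 0.04 for all genes. At that limit ABCG1 and ABCA4 passed through their RF means of 75 and 63.7, with FF means of 19 and 30. The median was −0.49 with libraries scaled to equal totals, where the median of all tested genes also moved to −0.13. The counts and medians describe the family, and no test of the family as a set was run.

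**Figure D1:**
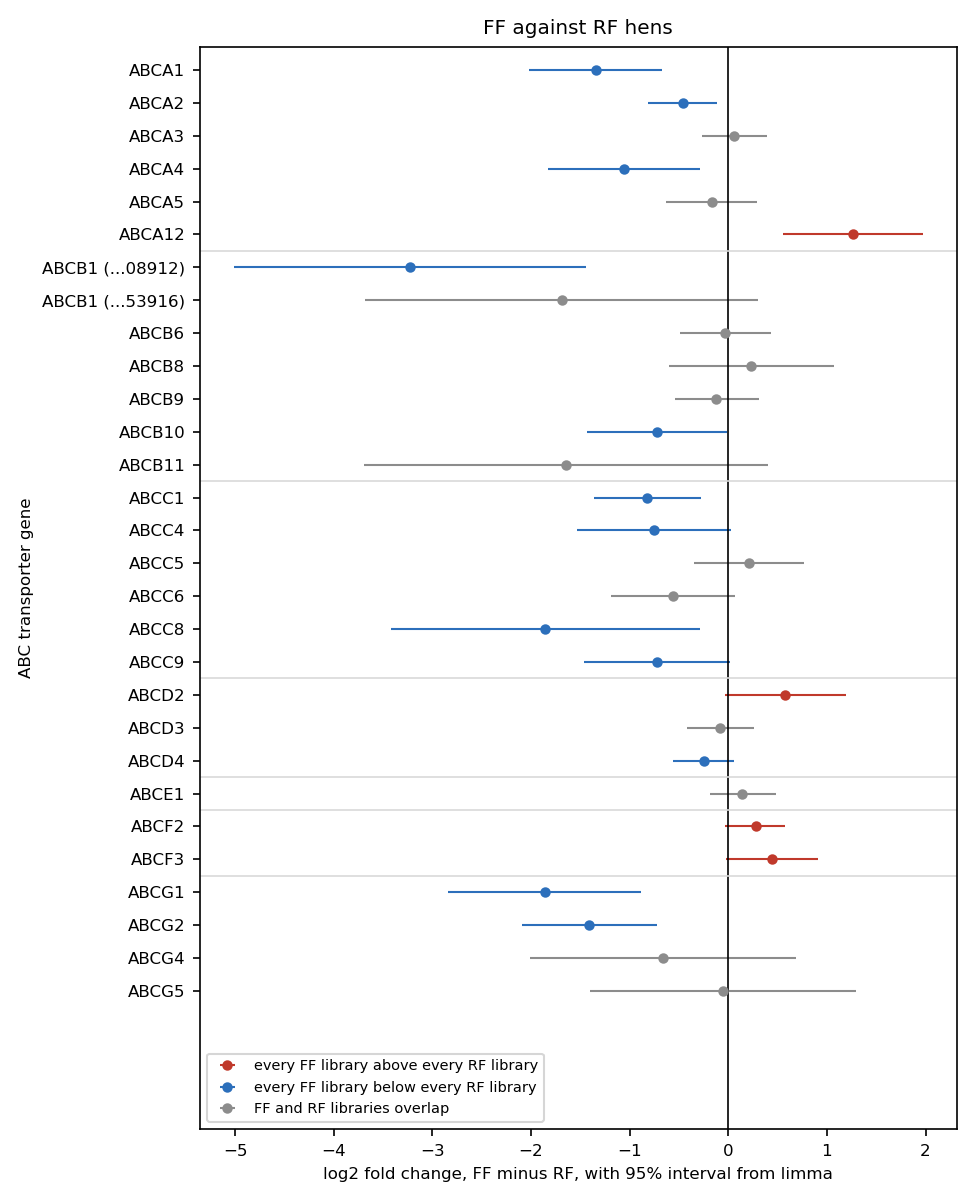
Log2 fold change of 29 of the 30 tested ABC genes, FF minus RF (horizontal axis), with the 95% interval from limma, for 2 FF and 3 RF libraries, and genes ordered by subfamily from A at the top to G at the bottom. Red points are the 4 genes in which every FF library lay above every RF library, blue points the 12 in which every FF library lay below, and grey points the 13 drawn genes whose groups overlapped. The 2 ABCB1 genes are told apart by the last 5 digits of their identifiers.

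By subfamily, genes that lay below the RF libraries were found in A, B, C, D and G. All 4 tested genes of subfamily G had a negative log2 fold change (median −1.03), as did 5 of 6 in C (median −0.74), 7 of 8 in B (median −0.43), 4 of 6 in A (median −0.31) and 2 of 3 in D (median −0.08). In the soluble subfamilies all 3 genes had a positive one, with 0.14 for the E gene and a median of 0.36 for the 2 F genes. With libraries scaled to equal totals, ABCA3 turned negative (−0.08), which made 5 of 6 in A, ABCE1 came to 0.01 and the F median to 0.22, and the other counts stayed as given. The values of B and G include the ABCB1 gene ENSGALG00000008912, ABCB11 and ABCG4, which passed the filter through their RF values.

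The ABC genes together took 0.167% and 0.17% of the normalized counts in FF hens and 0.193%, 0.192% and 0.208% in RF hens. Their summed normalized counts were 49315 and 49205 in FF hens and 50103, 50666 and 56820 in RF hens, closer between groups than the shares. The totals by which the sums are divided were higher in the FF libraries. Shares and sums rest on the genes with the most reads, which are not corrected for gene length.

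**Figure D2:**
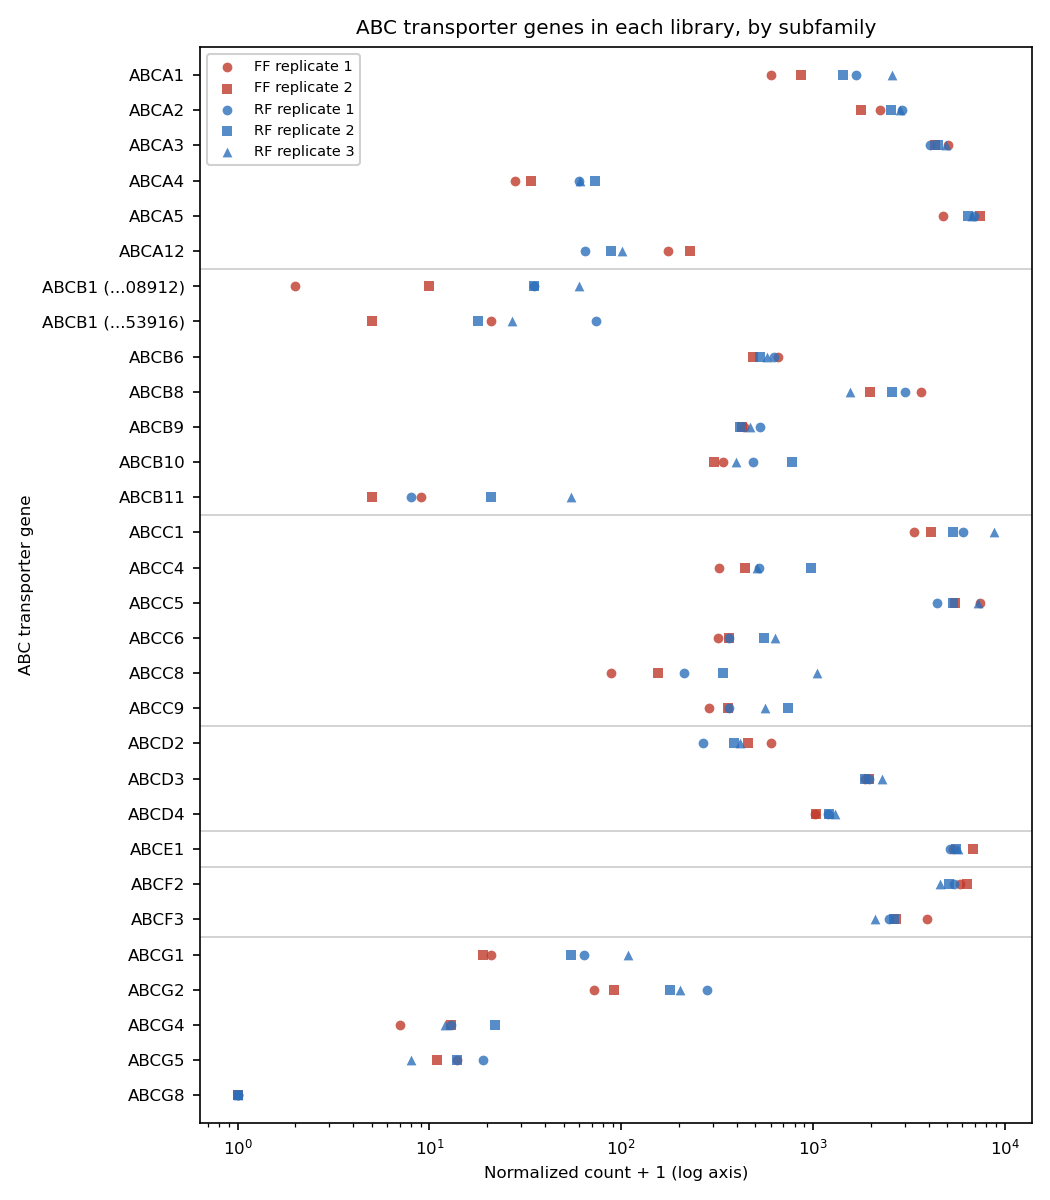
Normalized count plus 1 (log axis) of 30 of the 31 ABC genes in each of the 5 libraries, with FF libraries in red and RF libraries in blue and a symbol for each replicate number. ABCG1, ABCG2, ABCA1 and ABCA4 show FF points left of all RF points, ABCA12 shows them to the right, and ABCG8 is at 0 in every library.

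The cholesterol and phospholipid exporters ABCA1 and ABCG1 had lower values in FF hens, and ABCA12 higher values, without passing the test. ABCA1 (ENSGALG00000015433), which loads cellular cholesterol and phospholipid onto lipid-poor apolipoprotein A-I, had 605 and 862 normalized counts in FF hens and 1661, 1437 and 2587 in RF hens. The groups did not overlap, and RF replicate 3 stood above the other RF libraries. Its log2 fold change was −1.34 (standard error 0.28, adjusted p = 0.0837 from limma), and the means were 734 ± 182 (SD, n = 2) in FF hens and 1895 ± 610 (SD, n = 3) in RF hens.

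ABCG1 (ENSGALG00000016164), which passes cholesterol to larger lipoproteins, had 20 and 18 normalized counts in FF hens and 63, 54 and 108 in RF hens. The FF libraries were close together and below all RF libraries, of which RF replicate 3 was again the highest. The log2 fold change of ABCG1 was −1.86 (standard error 0.41, adjusted p = 0.0891 from limma).

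ABCA12 (ENSGALG00000003553), which in mammals carries glucosylceramides into the lamellar granules of the epidermis, had 174 and 226 normalized counts in FF hens and 64, 87 and 100 in RF hens. It was the single ABC gene with an unadjusted p under 0.05 that was higher in FF hens, at a log2 fold change of 1.26 (standard error 0.30, unadjusted p = 0.00433 and adjusted p = 0.10 from limma). ABCA12 is named by the study from these same libraries, so its direction here is not independent evidence.

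The remaining lipid exporters had overlapping FF and RF libraries or were listed at 0. ABCA3, a phospholipid transporter of lamellar bodies in the mammalian lung, had 5044 and 4314 normalized counts in FF hens and 4065 to 4918 in RF hens (log2 fold change 0.06, 95% interval −0.27 to 0.39). ABCG4, a relative of ABCG1 known from mammalian brain, had 6 and 12 normalized counts in FF hens and 11 to 21 in RF hens. ABCG5 and ABCG8 form the heterodimer that exports sterols from liver and intestine and are neighbouring genes in the RefSeq annotation. ABCG5 had 13 and 10 normalized counts in FF hens and 18, 13 and 7 in RF hens, a log2 fold change of −0.05 with an interval of −1.40 to 1.30, whereas ABCG8 was listed at 0 in all 5 libraries. A count of 0 allows up to 3 reads, or 2.44 to 3.64 normalized counts depending on the library, and this floor covers counting error only.

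Of the nuclear receptors and sterol factors that control ABC genes, 1 of 9 tested passed the test, and it was higher in FF hens, as were 0.842% of all tested genes. PPARG, a receptor upstream of lipid storage and, in mammalian macrophages, of ABCA1 and ABCG1, had 2346 and 2563 normalized counts in FF hens and 175, 446 and 321 in RF hens (log2 fold change 3.06, adjusted p = 0.0243 from limma). NR1H3, the oxysterol receptor LXR-alpha that activates ABCA1 and ABCG1, had 6610 and 6913 normalized counts in FF hens and 7313, 7616 and 8087 in RF hens (log2 fold change −0.18, adjusted p = 0.457). At an unadjusted p under 0.05 from limma, 4 of the 9 were higher in FF hens and 1 lower (9.58% and 8.22% of all tested genes). The largest log2 fold change, 5.12, was that of NR5A2. It had 2981 and 81 normalized counts in FF hens and 28, 24 and 3 in RF hens (adjusted p = 0.169). At an adjusted p under 0.05, 1 of 6 tested acceptors and partners of lipid export was higher in FF hens and 0 lower, against 0.842% and 0.241% of all tested genes. It was NPC2, a lysosomal cholesterol-binding protein, at 19485 and 13211 normalized counts in FF hens and 5859 to 6968 in RF hens (log2 fold change 1.31, adjusted p = 0.0357). NPC1, the membrane protein that works with NPC2 in the lysosome, had 38321 and 40021 normalized counts in FF hens and 56719, 57998 and 70604 in RF hens, without overlap (log2 fold change −0.65, adjusted p = 0.0959). APOA1, the acceptor of ABCA1, had 30641 and 25017 in FF hens and 18136 to 22328 in RF hens (log2 fold change 0.44, adjusted p = 0.212). Every FF library lay above every RF library in 4 of these 6 genes and below in 1, against 19.3% and 16.9% of all tested genes. PLTP was among the 4, at 1649 and 1431 normalized counts in FF hens and 368, 765 and 634 in RF hens (log2 fold change 1.45, adjusted p = 0.0858 from limma). LCAT, another of the 4, averaged under 10 in RF hens and passed the filter through its FF values. PPARG and NR5A2 are also in the study's tables, drawn from these same libraries, and their directions are no independent evidence.

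The exporters of drugs and conjugates formed the group with the most genes below the RF libraries. Of its 7 tested genes, 4 had every FF library below every RF library (16.9% of all tested genes did), 3 had an unadjusted p under 0.05 in that direction (8.22% of all), and 0 passed the test, with a median log2 fold change of −0.82. Both counts and the median include the ABCB1 gene ENSGALG00000008912, which averaged under 10 in FF hens and passed the filter through its RF values. The 2 ABCB1 genes, which may share reads, are among the 7. ABCG2 (ENSGALG00000030677), the breast cancer resistance protein, which exports drugs, urate and steroid sulfates, had 71 and 91 normalized counts in FF hens and 278, 178 and 201 in RF hens. Its means were 81 ± 14.1 (SD, n = 2) in FF hens and 219 ± 52.4 (SD, n = 3) in RF hens, which is −1.41 on the log2 scale (standard error 0.29, adjusted p = 0.0758 from limma).

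ABCG2 was highest in RF replicate 1, the library that also led most theca, endothelial and oocyte markers. Endothelial markers did not move as one. KDR, an endothelial receptor, had 5 and 8 normalized counts in FF hens and 198, 21 and 32 in RF hens, and FLT1 had 0 and 1 in FF hens and 49, 41 and 7 in RF hens, whereas PECAM1 had 1456 and 2649 in FF hens and 1318 to 1471 in RF hens. KDR and FLT1 passed the filter through their RF values. Without RF replicate 1 the log2 fold change of ABCG2 was −1.22 (adjusted p = 0.176 from limma). The part of endothelial cells in the ABCG2 values was not tested.

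Both genes named ABCB1, the P-glycoprotein that expels hydrophobic drugs, were low and had lower means in FF hens. ENSGALG00000008912 had 1 and 9 normalized counts in FF hens and 34, 34 and 59 in RF hens, the largest negative log2 fold change among the tested ABC genes, −3.23 (standard error 0.75, adjusted p = 0.0974 from limma), which became −1.99 with a pseudocount of 8. ENSGALG00000053916 had 20 and 4 normalized counts in FF hens and 73, 17 and 26 in RF hens, so that the groups overlapped. Its log2 fold change was −1.69 with all libraries (95% interval −3.68 to 0.30) and −1.11 without RF replicate 1. The RefSeq annotation places an ABCB1-like gene, ABCB1LA, next to ABCB1, and reads shared by such copies could be split between the 2 rows, so their separate values are uncertain.

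ABCC1 (ENSGALG00000006646), an exporter of glutathione conjugates and leukotrienes, had 3370 and 4104 normalized counts in FF hens and 6019, 5360 and 8776 in RF hens. The FF libraries were lower than every RF library, and RF replicate 3 was the highest. The log2 fold change was −0.82 (standard error 0.23, adjusted p = 0.138 from limma).

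ABCC6, which in mammals releases ATP from hepatocytes, is the neighbour of ABCC1 in the RefSeq annotation and had 317 and 365 normalized counts in FF hens and 365, 554 and 629 in RF hens, with FF replicate 2 and RF replicate 1 tied. ABCC4, an exporter of cyclic nucleotides and prostaglandins, had 323 and 442 normalized counts in FF hens and 518, 978 and 510 in RF hens, with the single high value in RF replicate 2 (log2 fold change −0.75, adjusted p = 0.297). ABCC4 came to −0.44 without RF replicate 2. ABCC5, another exporter of cyclic nucleotides, had 7402 and 5501 normalized counts in FF hens and 4395, 5325 and 7187 in RF hens, the 1 gene of this group with a positive log2 fold change (0.21, 95% interval −0.35 to 0.77).

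**Figure D3:**
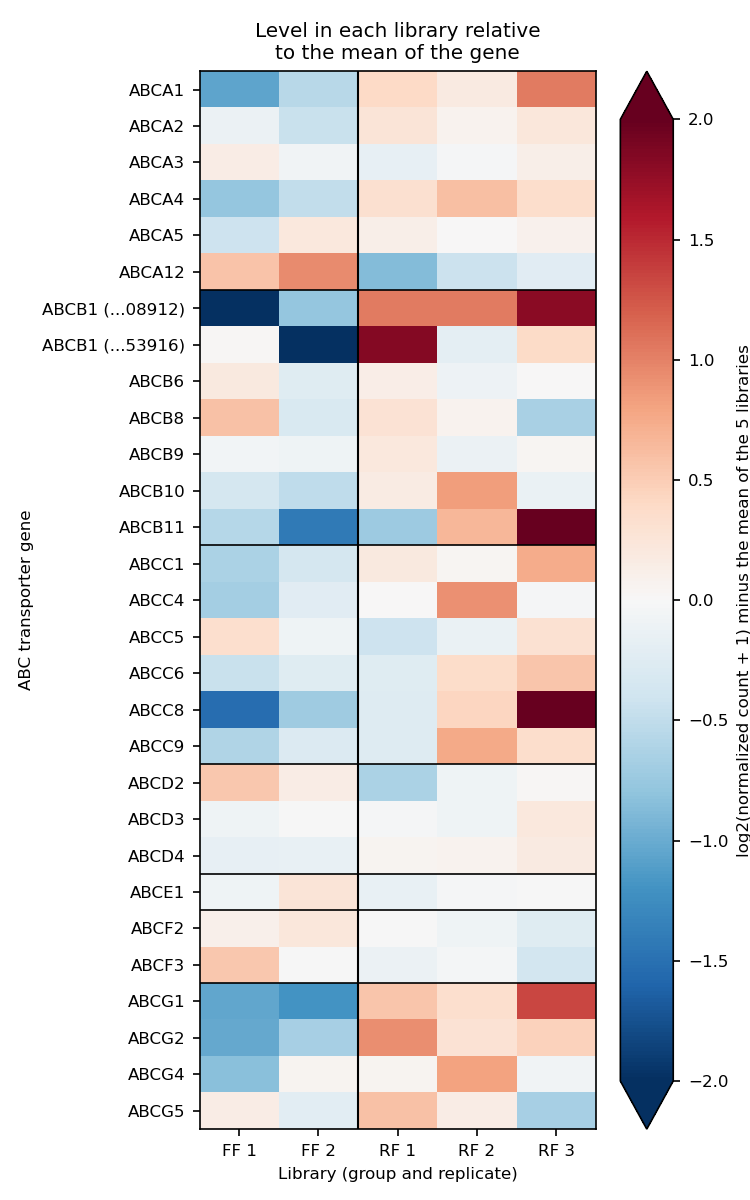
Log2(normalized count + 1) of 29 of the 30 tested ABC genes in each library minus the mean of the gene over the 5 libraries, with red for above and blue for below that mean and colours capped at −2 and 2. FF libraries are the 2 columns on the left. ABCA1, ABCC1, ABCC8 and ABCG1 are reddest in RF replicate 3, ABCB10, ABCC4 and ABCC9 in RF replicate 2, and ABCG2 in RF replicate 1.

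The genes of both KATP channels had lower means in FF hens, and none passed the test. ABCC8 (ENSGALG00000006172), the regulatory subunit SUR1, had 87 and 154 normalized counts in FF hens and 210, 339 and 1052 in RF hens. RF replicate 3 was 5.01 times RF replicate 1, the second widest spread among RF libraries of any tested ABC gene after ABCB11 at 7.71. The log2 fold change of ABCC8 was −1.86 (standard error 0.65, adjusted p = 0.215 from limma), and −1.20 without RF replicate 3. ABCC8 is in the study's tables from these libraries, so its direction is no independent evidence.

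KCNJ11, the pore subunit that pairs with SUR1 and the neighbour of ABCC8 in the RefSeq annotation, had 1 and 5 normalized counts in FF hens and 16, 9 and 50 in RF hens. KCNJ11 averaged under 10 in FF hens and passed the filter through its RF values. It too was highest in RF replicate 3 and lowest in FF replicate 1 (log2 fold change −2.57, adjusted p = 0.205 from limma).

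ABCC9 (ENSGALG00000013244), the regulatory subunit SUR2, had 287 and 360 normalized counts in FF hens and 364, 736 and 557 in RF hens. FF replicate 2 and RF replicate 1 were nearly equal, and RF replicate 2 was the highest. The log2 fold change was −0.72 (standard error 0.31, adjusted p = 0.293 from limma). KCNJ8, its pore partner and the neighbour of ABCC9 in the same annotation, had 103 and 121 normalized counts in FF hens and 155, 238 and 194 in RF hens (log2 fold change −0.78, adjusted p = 0.209). ABCC9 and KCNJ8 put the 5 libraries in one order, and ABCC8 and KCNJ11 differed only in the order of RF replicates 1 and 2. All these genes had both FF libraries below all RF libraries, which fixes part of the order. How often other gene pairs share an order was not computed. With 5 libraries no correlation was computed. ABCC9 and KCNJ8 also occur in smooth muscle and pericytes. Markers of such cells differed in direction, with ACTA2 at 3429 and 4257 normalized counts in FF hens and 1533, 1766 and 3402 in RF hens, TAGLN at 3 and 0 in FF hens and 38, 10 and 8 in RF hens, and MYH11 and PDGFRB overlapping (log2 fold changes 0.26 and −0.44). TAGLN passed the filter through its RF values. The part of such cells in these values was not tested.

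**Figure D4:**
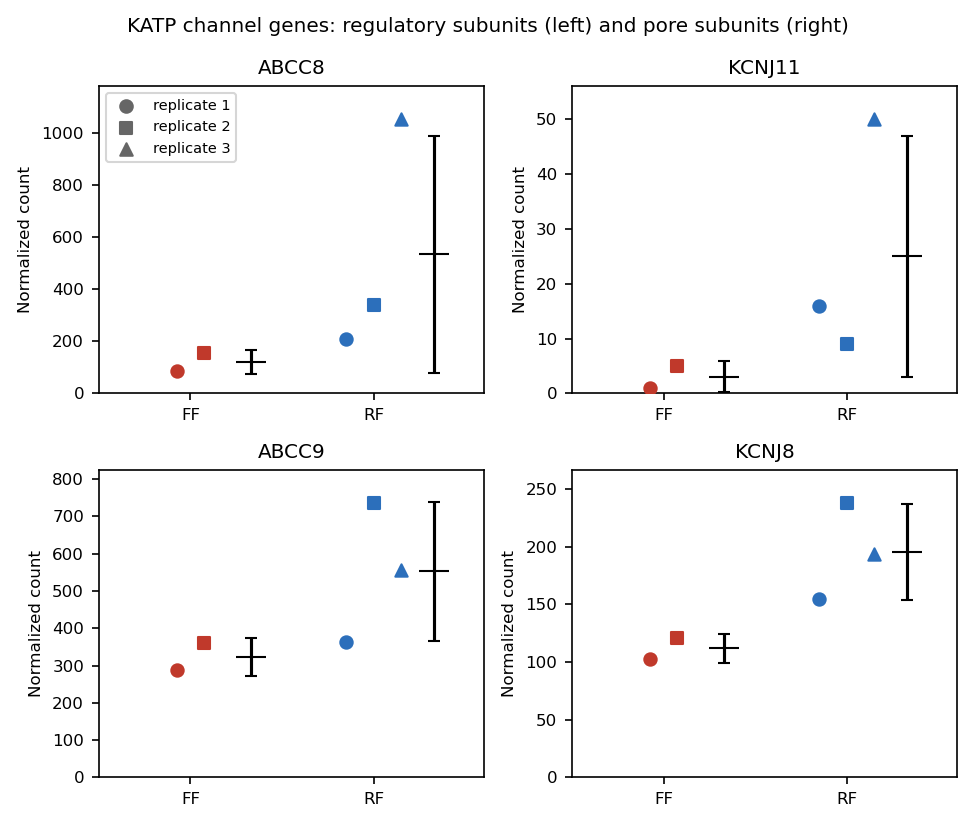
Normalized counts of the KATP channel genes in each library, with the regulatory subunits ABCC8 and ABCC9 on the left and the pore subunits KCNJ11 and KCNJ8 on the right. Points are libraries with a symbol for each replicate number, and bars are the mean and SD of 2 FF and 3 RF hens. ABCC8 and KCNJ11 peak in RF replicate 3, at 1052 and 50, and ABCC9 and KCNJ8 in RF replicate 2, at 736 and 238.

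Among the mitochondrial transporters ABCB10, ABCB6 and ABCB8, the groups of ABCB10 alone did not overlap. ABCB10, which stabilizes the iron importer mitoferrin and serves heme synthesis, had 339 and 303 normalized counts in FF hens and 483, 773 and 395 in RF hens. The log2 fold change was −0.72 (standard error 0.30, adjusted p = 0.273 from limma), with the highest value in RF replicate 2, and −0.45 without it. ABCB10 is abundant in developing red blood cells. The 4 tested red blood cell markers had higher means in FF hens, with HBA1 at 145 and 327 normalized counts in FF hens and 41, 27 and 60 in RF hens. HBA1 is in the study's tables from these libraries, so its direction is no independent evidence. SLC4A1, another of the 4, averaged under 10 in RF hens and passed the filter through its FF values. Of the 4 markers 1 passed the test, as did 0.842% of all tested genes in that direction. It was ALAS2, also an enzyme of heme synthesis, at 3369 and 3318 normalized counts in FF hens and 1528, 1230 and 1243 in RF hens. Its log2 fold change was 1.33 (adjusted p = 0.0223 from limma). ALAS2 lay far above HBA1 in every library, and which cells its reads came from was not tested. The part of red blood cells in the ABCB10 values was not tested.

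ABCB6, a porphyrin transporter, had 651 and 483 normalized counts in FF hens and 528 to 626 in RF hens. ABCB8, a subunit linked to mitochondrial iron export and a mitochondrial KATP channel in mammals, spread widely within both groups, with 3663 and 1984 in FF hens and 2996, 2580 and 1557 in RF hens. Of 9 tested partners of the mitochondrial and peroxisomal transporters 0 passed the test, against 0.842% of all tested genes higher and 0.241% lower in FF hens. Every FF library lay above every RF library in 2 and below in 2, against 19.3% and 16.9% of all tested genes. Log2 fold changes of the 9 ran from −0.29 to 0.32. Within that range lay SLC25A37, which encodes mitoferrin, at −0.02, and FECH, the last enzyme of heme synthesis, at −0.29.

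The transporters of peroxisomes and lysosomes differed in direction. ABCD2, an importer of very long-chain acyl-CoA into peroxisomes, had 599 and 457 normalized counts in FF hens and 266, 388 and 416 in RF hens, with both FF libraries above all RF libraries (log2 fold change 0.58, adjusted p = 0.304 from limma). ABCD3, its relative for long-chain and branched acyl-CoA and bile acid precursors, had 1864 and 1955 in FF hens and 1947, 1853 and 2288 in RF hens (log2 fold change −0.08). ABCD4, which helps release vitamin B12 from the lysosome, had 1026 and 1039 normalized counts in FF hens and 1189, 1204 and 1296 in RF hens. The groups of ABCD4 stood apart by a small step, a log2 fold change of −0.25 (adjusted p = 0.373).

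ABCA2, a lysosomal lipid transporter, had 2241 and 1782 normalized counts in FF hens and 2886, 2548 and 2823 in RF hens (log2 fold change −0.46, unadjusted p = 0.0181 and adjusted p = 0.189 from limma). ABCB9, a lysosomal peptide transporter, had 435 and 427 in FF hens and 417 to 525 in RF hens. TAP1, an ABC protein of antigen presentation that the naming rule leaves out, had 181 and 148 in FF hens and 99, 84 and 61 in RF hens (log2 fold change 1.03, adjusted p = 0.164). CFTR, the chloride channel of subfamily C that also carries another name, had 1 and 3 normalized counts in FF hens and 6, 11 and 13 in RF hens, and lay under the minimum mean.

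The soluble ABC proteins had higher means in FF hens. ABCF2 had 5805 and 6333 normalized counts in FF hens and 5399, 5075 and 4582 in RF hens (log2 fold change 0.28, adjusted p = 0.321 from limma). ABCF3 had 3916 and 2702 in FF hens and 2489, 2632 and 2094 in RF hens (log2 fold change 0.44, adjusted p = 0.30). In both genes the FF libraries lay above all RF libraries, as in 19.3% of all tested genes. FF replicate 2 of ABCF3 exceeded RF replicate 2 by little, and the log2 fold change of ABCF3 was 0.17 without FF replicate 1. ABCE1, which splits ribosomes into subunits after termination, had 5368 and 6797 normalized counts in FF hens and 5158, 5582 and 5669 in RF hens. The groups of ABCE1 overlapped, and its log2 fold change was 0.14 (95% interval −0.19 to 0.48) and −0.03 without FF replicate 2. Of 5 tested partners of these factors in translation 0 passed the test, against 0.842% of all tested genes higher and 0.241% lower in FF hens. Log2 fold changes of the 5 ran from −0.01 to 0.27.

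The last 3 genes belong to other roles. ABCA4, the retinoid flippase of photoreceptors, had 27 and 33 normalized counts in FF hens and 59, 72 and 60 in RF hens, with tight groups that did not overlap (−1.06 ± 0.32 on the log2 scale, ± being the standard error, and adjusted p = 0.172 from limma). ABCA5, a lysosomal and endosomal member linked to sterol handling, had 4775 and 7411 in FF hens and 6378 to 6920 in RF hens, so that the FF libraries lay on both sides of the RF libraries. ABCB11, the bile salt export pump of the liver, had 8 and 4 normalized counts in FF hens and 7, 20 and 54 in RF hens, with the high value in RF replicate 3.

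The RF hens differed among themselves in the ABC genes, with shares of the highest library not far from those over all tested genes. Among RF libraries, RF replicate 3 was the highest in 15 of the 30 tested genes, against 38.4% of all tested genes, RF replicate 1 in 9 (34.5%) and RF replicate 2 in 6 (27.1%). Of the 12 genes in which FF libraries lay below all RF libraries, 6 were highest in RF replicate 3, namely ABCA1, the ABCB1 gene ENSGALG00000008912, ABCC1, ABCC8, ABCD4 and ABCG1. Another 4 were highest in RF replicate 2, ABCA4, ABCB10, ABCC4 and ABCC9, and 2 in RF replicate 1, ABCA2 and ABCG2. The same split was not computed over all genes, so these counts only describe the 12 genes. WT1, a transcription factor of granulosa cells, was also highest in RF replicate 3, at 1717 and 1311 normalized counts in FF hens and 2549, 3488 and 7223 in RF hens. The other listed granulosa markers differed in this. Among RF hens, INHA, INHBA, FSHR and GATA4 were highest in RF replicate 3, AMH, CYP11A1, STAR and NR5A1 in RF replicate 1, and FOXL2 in RF replicate 2. The part of WT1 in the ABC values was not tested.

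Leaving out 1 library at a time moved the sizes but made no ABC gene pass. ABCA1 ran from −1.60 to −1.09, ABCG1 from −2.06 to −1.57, ABCG2 from −1.59 to −1.22 and ABCC1 from −0.97 to −0.61 on the log2 scale, with the smallest sizes of ABCA1, ABCG1 and ABCC1 near or at the fit without RF replicate 3 (−1.10, −1.57 and −0.61). ABCA12 ran from 1.07 to 1.45. The ABCB1 gene ENSGALG00000008912 moved most among these genes, at −4.39 without FF replicate 2 and −2.07 without FF replicate 1, as its FF values are 1 and 9.

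**Figure D5:**
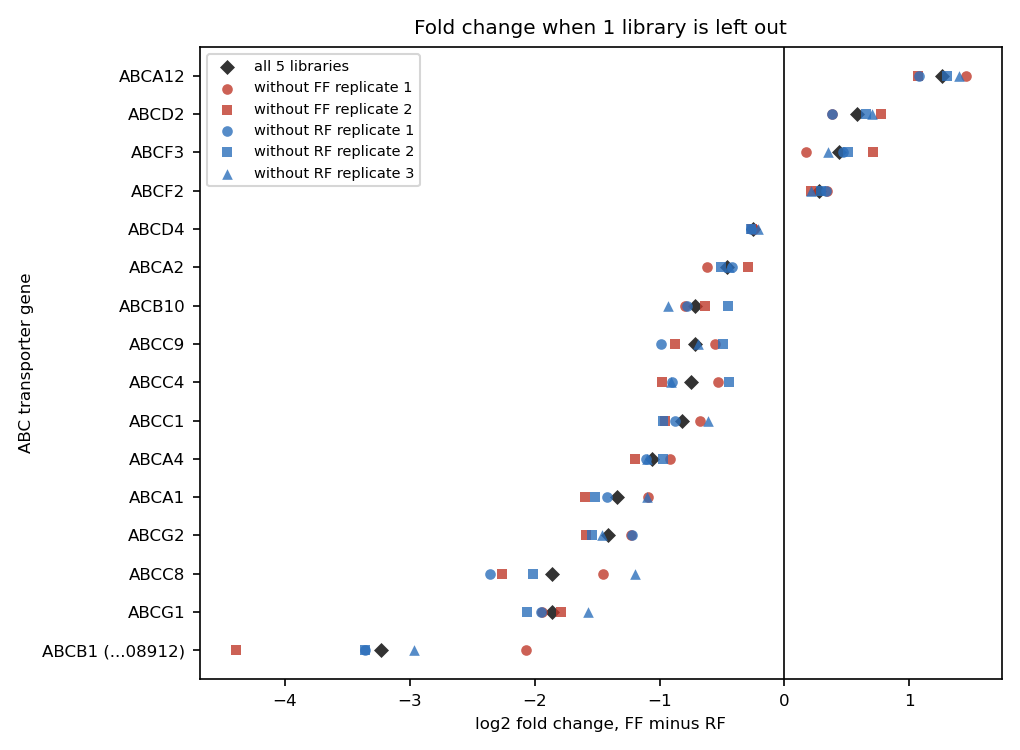
Log2 fold change, FF minus RF (horizontal axis), of the 16 ABC genes whose FF and RF libraries do not overlap, with all 5 libraries (black) and with each library left out. Every point of a gene lies on the same side of zero, which the choice of genes without overlap fixes in advance. ABCB1 (ENSGALG00000008912) and ABCC8 have the widest ranges, from −4.39 to −2.07 and from −2.36 to −1.20.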

How the data were processed

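Per the labels, the authors used Trim Galore for trimming, STAR for alignment to the galGal6 build and DESeq2 for normalization, while versions and the program that counted reads were not stated. Values deposited by the authors are normalized counts without decimals, and were treated as a score, not as raw counts. Where 1 read is worth under 1 normalized count, rounding merges read counts, so no count model was run. limma 3.58.1 (R 4.3.3) with a mean-variance trend was fitted to all 13305 genes with a mean of at least 10, with pseudocount 1, 3 residual degrees of freedom and Benjamini-Hochberg adjustment. The fit was tested on simulated data with the same spread setting for all genes and changes only in genes with high values. That check does not show the power of the fit for the ABC genes. Libraries were matched to hens by the labels. Members and lists were chosen with earlier results of these data known. Genes given with full values are those past the test, the 8 most extreme in each direction without overlap, 15 chosen by role or by the study (ABCF1 is among these and was not analysed here), and the one with the highest mean of each subfamily. The other ABC genes and the examples from other lists were added after their values were seen. Gene order and symbols came from the RefSeq annotation of GRCg7b, which held all 30 symbols and 10 further ABC symbols not analysed here. The values of 1 ABC gene are not reported here, although it is in the counts and medians. No sequences are shown. Figures were drawn with matplotlib 3.10.9.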

Additional observations from a re-analysis of the deposited data

How the results depend on the processing

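Across the 14 alternatives, 0 ABC genes passed the test in either direction, as in the main comparison. Of 414 fold changes of tested ABC genes 398 kept their direction, but this tally overstates how stable the directions were. Another minimum mean, no trend or a robust variance estimate left each fold change as in the main fit, so that it could not reverse. The fit with the replicate number as a block was not a separate check. For ABC genes tested in both, it repeated the fold changes of the fit without the RF library whose number no FF library has. The reversals were those of genes near zero. With equal totals ABCA3 was −0.08, and with the replicate number as a block ABCB8 was −0.04 and ABCD3 0.01. When single libraries were left out, ABCA3 ran from −0.05 to 0.17, ABCA5 from −0.48 to 0.15, ABCB6 from −0.25 to 0.18, ABCB8 from −0.21 to 0.68, ABCC5 from −0.00499 to 0.42, ABCD3 from −0.14 to 0.01, ABCE1 from −0.03 to 0.31 and ABCG5 from −0.39 to 0.23. The median of the tested ABC genes was −0.17 at a minimum mean of 50, where 5 genes drop out, −0.49 with equal totals and −0.40 with equal upper quartiles, and −0.39 to −0.25 with 1 library left out. At the minimum mean of 50, ABCG1 and ABCA4 still passed through their RF values. The counts at an unadjusted p under 0.05 were added after seeing the data. With 1 RF library left out they were 1 to 2 higher and 7 to 10 lower among the ABC genes. The same fits gave 930 to 1203 higher and 806 to 1027 lower over all genes, against 1275 and 1094 in the main fit. Over all genes, the counts past the test (112 higher, 32 lower) were 13 and 1 with no minimum mean and 0 and 0 in limma with no trend (1041 and 1147 at an unadjusted p under 0.05), and 70 were lower with equal totals. With 1 library left out they ran from 1 to 97 and from 0 to 31, lowest without either FF library (1 and 0). The cause was not tested. With the replicate block they were 53 and 9. The numbers name different hens and give only 2 pairs, whose deviations correlated at 0.11 and −0.07, so they were not taken as pairs. With an FF library left out, the lone FF hen is assumed to vary like the RF hens. Depth limits ABCB1, ABCB11, ABCG4, ABCG5 and ABCG8 most.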
